A study of Mus musculus with 24 samples.

Results

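The proteasome subunit genes were followed in livers of fasted mice of 6 genotypes. Every protein-coding gene of the read-count table whose name runs from Psma to Psmf and ends in a number was taken, which gave 44 of the 35275 genes in the table. They comprised 7 alpha and 7 constitutive beta subunits of the 20S core, 3 immunoproteasome beta subunits, 6 ATPase and 11 non-ATPase subunits of the 19S regulatory particle, 3 chaperones of 19S assembly that carry Psmd names, 4 activators, the regulator Psmf1 and 2 subunits restricted to other tissues. Of the 44 genes, 43 had enough reads to be tested. Psmb11, the beta subunit of the thymus, had at most 1 read in any library, and Psma8, the alpha subunit of the testis, was tested at 0.752 to 1.42 CPM (counts scaled to library size) in control livers.

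The 26S proteasome degrades proteins that carry ubiquitin chains. Its 20S core is a barrel of alpha and beta rings, and Psmb5, Psmb6 and Psmb7 supply the chymotrypsin-like, caspase-like and trypsin-like active sites. The 19S regulatory particle caps the barrel, binds and deubiquitinates the substrate and unfolds it with a ring of ATPases. Interferon induces Psmb8, Psmb9 and Psmb10, which replace the 3 catalytic subunits in newly built cores and favour peptides for MHC class I, together with the activator subunits Psme1 and Psme2 (PA28 alpha and beta). The transcription factor Nfe2l1 raises the subunit genes together when proteasome activity falls short.

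The 6 groups held 4 livers each, labelled as from male C57BL/6 mice aged 8 to 10 weeks and fasted for 24 h. The controls are labelled wild type, and the study's methods describe floxed littermates. Tsc1 L-/- livers lacked Tsc1, the brake on mTorc1, Cpt2 L-/- livers lacked Cpt2, which mitochondria need to oxidise long-chain fatty acids, and double-knockout (DKO, Tsc1Cpt2 L-/-) livers lacked both. These deletions were driven by Albumin-Cre and so concern hepatocytes, while a piece of liver holds all its cell types. Ppara KO and Cpt2 Ppara KO livers lacked the fatty acid sensing receptor Ppara, the second with Cpt2 deleted as well, and how Ppara was deleted is not given in the sources used here. Libraries held 14470968 to 20371204 counts. Tsc1 L-/- livers held less Tsc1 RNA than controls did (log2 change −0.65, SE 0.13, edgeR adjusted p = 0.00491), and Ppara RNA was lower in Ppara KO livers (log2 change −3.23, SE 0.41, edgeR adjusted p = 3.21e-05). Cpt2 RNA was near control in Cpt2 L-/- livers (log2 change −0.11, edgeR adjusted p = 0.605), and counts per gene do not show which exons the reads came from, so it does not check that label.

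Several libraries stood apart from their groups. In Cpt2 Ppara KO replicate 1, ribosomal protein genes took 5.65% of all counts against 1.04 to 2.79% in the other 23 libraries, and the mean length of the genes behind its reads was 2504 bases against 2725 to 3461 bases. Subunit genes took 0.699% of its counts, more than in any other library, and 0.298 to 0.611% elsewhere. Tsc1 L-/- replicate 3 had the lowest level of its group in most subunits, and Ppara KO replicate 1 lay above the other 3 of its group in most core subunits. For some of the comparisons with these libraries, the counts of subunits called are also given without them. Reads from livers cannot tell fewer cells of a type from less RNA per cell.

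The promoters of 4 genes are shown first, because these genes changed most across genotypes (Psmd8, Psmd4 and Psmd9) or supply the main active site (Psmb5). Each is the 250 bases before the RefSeq gene start on GRCm38.p6, 5′ to 3′ on the gene's own strand, with capitals marking matches to 3 motifs searched on both strands: TGACNNNGC (the antioxidant response element core, the kind of site bound by Nfe2l1), CCAAT (the NF-Y box) and GAAANNGAA (the core of the interferon-stimulated response element). The windows are chr7:29180674-29180923 (minus strand) for Psmd8, chr3:95042615-95042864 (minus strand) for Psmd4, chr5:123227940-123228189 (plus strand) for Psmd9 and chr14:54617996-54618245 (minus strand) for Psmb5.
Psmd8: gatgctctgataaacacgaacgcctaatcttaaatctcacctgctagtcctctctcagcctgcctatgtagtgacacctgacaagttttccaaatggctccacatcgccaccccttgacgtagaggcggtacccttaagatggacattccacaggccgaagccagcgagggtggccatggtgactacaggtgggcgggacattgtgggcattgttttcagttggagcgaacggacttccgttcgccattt
Psmd4: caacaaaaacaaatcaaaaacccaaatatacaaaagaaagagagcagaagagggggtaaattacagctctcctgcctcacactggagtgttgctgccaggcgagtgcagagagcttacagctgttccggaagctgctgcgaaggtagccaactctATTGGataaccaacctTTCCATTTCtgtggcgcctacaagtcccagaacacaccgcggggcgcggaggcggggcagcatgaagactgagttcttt
Psmd9: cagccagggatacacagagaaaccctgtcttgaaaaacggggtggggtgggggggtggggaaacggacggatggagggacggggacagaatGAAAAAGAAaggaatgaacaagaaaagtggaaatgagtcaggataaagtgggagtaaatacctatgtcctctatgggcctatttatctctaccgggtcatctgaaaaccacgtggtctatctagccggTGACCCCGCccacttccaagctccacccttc
Psmb5: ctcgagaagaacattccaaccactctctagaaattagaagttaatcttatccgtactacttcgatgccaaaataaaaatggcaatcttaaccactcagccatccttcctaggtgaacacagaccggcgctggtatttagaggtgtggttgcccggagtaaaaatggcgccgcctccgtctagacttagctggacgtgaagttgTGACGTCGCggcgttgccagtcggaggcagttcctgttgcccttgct
The Psmb5 window holds TGACNNNGC 47 bases before the start, and the Psmd9 window holds it 31 bases before the start and GAAANNGAA 159 bases before it. The Psmd4 window holds CCAAT and GAAANNGAA on the opposite strand, 95 and 79 bases before the start, and the Psmd8 window holds none of the 3, which says only that these letters are not in this window. Of the 44 genes, 37 had a promoter in the RefSeq table (not Psma8, Psmb1, Psmb2, Psmb7, Psmc3, Psmd3 and Psmd7). TGACNNNGC was found in 5 of the 37 (13.5%, Psmb5, Psmb6, Psmc6, Psmd9 and Psmd12) against 11.5% of 27025 genes with a window of the same length. CCAAT was found in 14 (37.8% against 37.5%) and GAAANNGAA in 3 (8.11% against 8.18%), so the subunit genes held the 3 motifs about as often as other genes did.

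Levels of different genes were compared per length, in the deposited FPKM. In control livers the beta subunits Psmb4, Psmb6, Psmb7 and Psmb5 were the most abundant, at 154 ± 13.9, 149 ± 10.3, 145 ± 7.33 and 133 ± 8.71 FPKM (mean ± SD, n = 4), and their ranges overlapped. Among the 19S subunits the ATPase Psmc1 (125 ± 15.6 FPKM) was highest, followed by the lid subunit Psmd8 (86.7 ± 16.6) and the base scaffold Psmd2 (86.4 ± 7.90), which were level. The ATPase Psmc2 (26.4 ± 1.48) was lowest. The immunoproteasome subunits were scarce, with Psmb10 at 18.4 ± 3.78, Psmb8 at 8.05 ± 2.01 and Psmb9 at 4.82 ± 1.10 FPKM. The chaperones Psmd5 (8.59 ± 1.09) and Psmd10 (7.58 ± 0.909) and the regulator Psmf1 (7.75 ± 0.449) also lay under 10 FPKM. In DKO livers the order changed at the top, where Psmd8 reached 319.7 ± 37.2 FPKM and stood above Psmb5 (227 ± 77.5) and Psmb4 (216 ± 16.1).

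**Figure D1:**
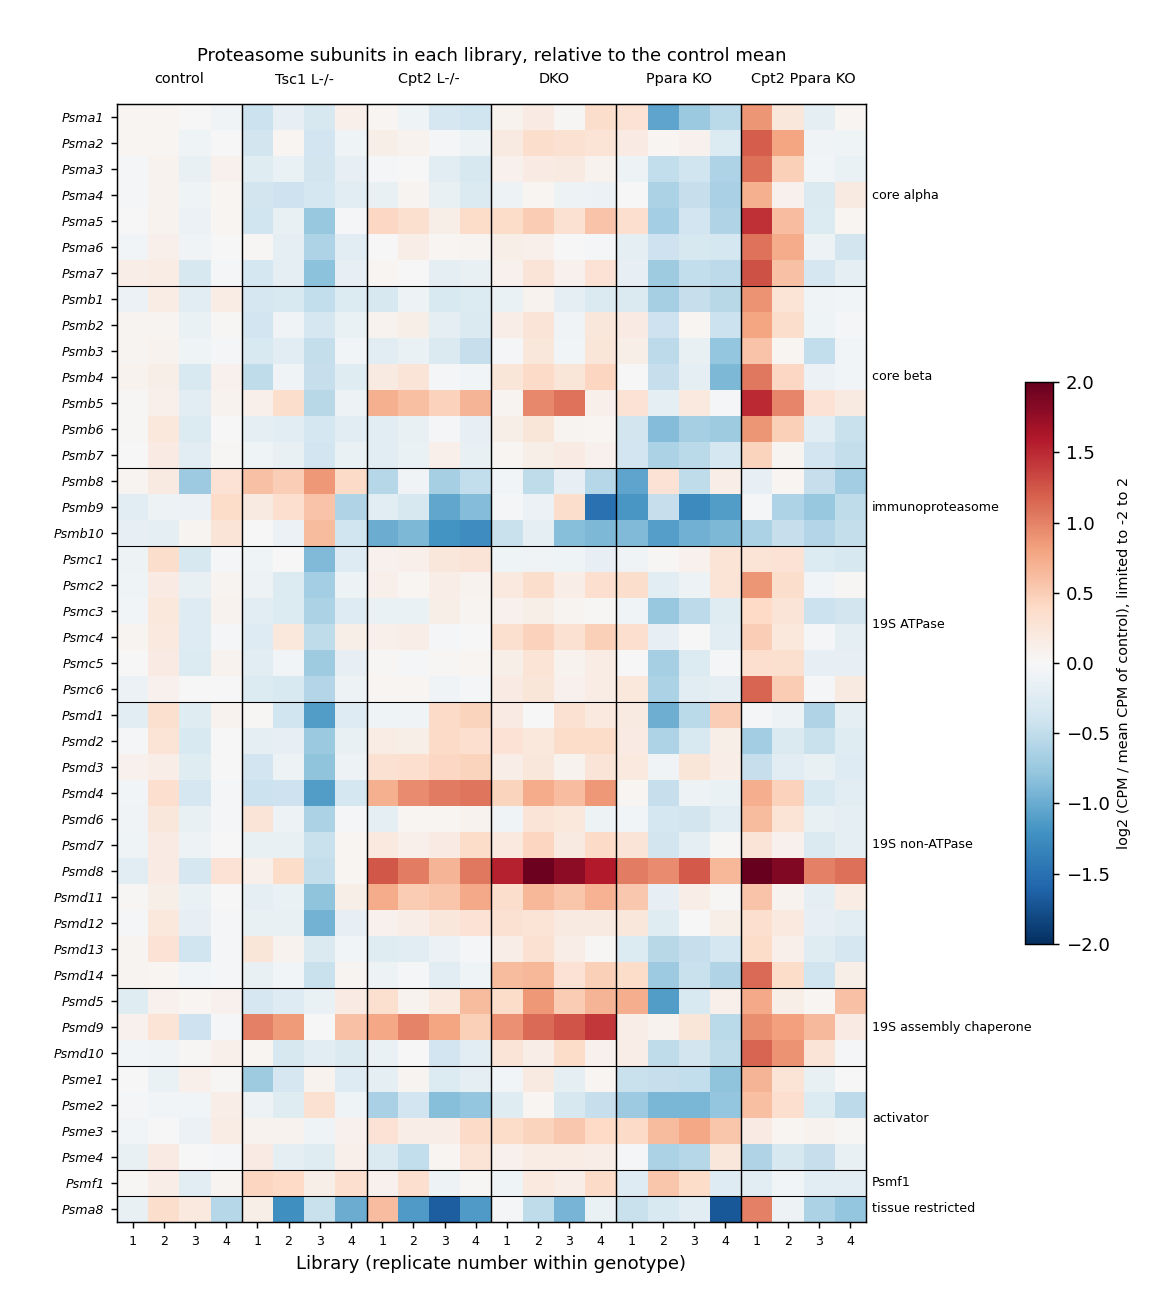
Level of each tested subunit gene in each of the 24 libraries, as the log2 ratio of its CPM to the mean CPM of the 4 control libraries. Rows are genes ordered by class and columns are libraries ordered by genotype. Psmd8 is high in all Cpt2 L-/-, DKO, Ppara KO and Cpt2 Ppara KO libraries, and Cpt2 Ppara KO replicate 1 is high in most core subunits.

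Few subunit genes changed when Tsc1 or Cpt2 was lost alone, and most of them were higher when Cpt2 was lost together with Tsc1 than when Tsc1 was lost alone. Genotypes were compared on the counts with edgeR, a gene being called at an adjusted p under 0.05 over all genes tested. In this and the next 3 paragraphs, counts of subunits called are given with the share of all tested genes called in the same direction. Where that share is missing, as for some alternative fits, a count cannot be set against all genes. Loss of Tsc1 alone left 1 subunit called higher than control (2.33% of the 43, against 4.16% of all genes) and 1 lower (2.33% against 2.48%). Loss of Cpt2 gave 5 higher (11.6% against 16.2%) and 2 lower (4.65% against 14.9%), a smaller share than in all genes in both directions. In DKO livers, 11 were higher than control (25.6% against 19.3%) and 1 was lower (2.33% against 17.1%). In the fit of all 24 libraries 5 were higher (against 12.3% of all genes), and with limma on FPKM 23 (against 27.9%). Deleting Tsc1 on top of Cpt2 gave 5 higher in DKO than in Cpt2 L-/- livers (11.6% against 10.9%) and 0 lower against 7.4% of all genes, where 0 lay lower at an unadjusted p under 0.05 and DESeq2 called 0. The 5 higher calls fell to 2 without Cpt2 L-/- replicate 3 or 4 or DKO replicate 2 (against 6.39 to 8.02% of all genes) and to 0 in the fit of all 24 libraries (against 4.66%), where 4 lay under an unadjusted p of 0.05.

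Deleting Cpt2 on top of Tsc1 moved the most subunits. In DKO against Tsc1 L-/- livers, 29 of 43 were higher (67.4% against 16.9% of all genes) and 2 were lower (4.65% against 15.2%). The median subunit differed by 0.40 on the log2 scale, and the median of all genes tested by −0.00030. Without Tsc1 L-/- replicate 3, 19 were higher (against 14.3% of all genes) and 1 was lower (against 12.8%), with a median of 0.35, and in a fit of all 24 libraries 12 were higher (against 10.6%) and 2 lower (against 10.7%). Ribosomal protein genes took 1.73 to 2.3% of counts in DKO and 1.24 to 1.36% in Tsc1 L-/- livers, and hepatocyte markers summed to 28500.0 to 34730.0 and 41950.0 to 64950.0 CPM, both without overlap. Tsc1 RNA also differed between these 2 groups (log2 change −0.56, edgeR adjusted p = 0.00281). The part of these differences in the subunit calls was not tested.

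In the 3 pairwise comparisons with Ppara-deleted livers, subunits were called more often than all genes as higher in Cpt2 Ppara KO than in Ppara KO livers, and most of those calls were lost without 1 library. Ppara KO livers had 2 subunits called higher than control (4.65% against 15.9%) and 5 lower (11.6% against 13.2%), with a median of −0.23. Without the replicate 1 libraries of both Ppara groups, 16 were lower (37.2% against 17.5% of all genes), 9 of them core subunits. Without Cpt2 Ppara KO replicate 1 alone, 9 were lower (20.9% against 15.3%). Cpt2 Ppara KO against Cpt2 L-/- livers had 3 higher (6.98% against 10.3%) and 3 lower (6.98% against 8.01%). Without Cpt2 L-/- replicate 3 or 4 these 6 fell to 1, which was lower, and all 24 libraries gave 7 higher and 3 lower. The shares of all genes in these fits are not given here. Cpt2 Ppara KO against Ppara KO livers had 14 higher (32.6% against 12.9%) and 2 lower (4.65% against 12.6%). The 14 higher calls fell to 5 without Cpt2 Ppara KO replicate 1 (Psmb1, Psmb6, Psmd10, Psme1 and Psme2, against 5.74% of all genes) and to 4 when the fit allowed for a dependence on gene length (against 8.84%). A fit of these 2 groups alone called 0 subunits with edgeR, where 16 lay under an unadjusted p of 0.05, and called few genes of any kind (111 in all). These comparisons share groups, so their values are given side by side and no overlap between them is read.

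Whether the effect of 1 deletion differed with the other was tested as an interaction. For Tsc1 and Cpt2, 2 subunits had a positive interaction (a higher log2 change on Cpt2 loss with Tsc1 lost than with Tsc1 present, 4.65% against 1.09% of all genes) and 0 a negative one against 1.28%, where 0 lay negative at an unadjusted p under 0.05 and DESeq2 called 0. For Cpt2 and Ppara, 8 were positive (18.6% against 12%) and 2 negative (4.65% against 12%).

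In the 20S core, 1 subunit was called against control in each single knockout, Psmb5 with Cpt2 loss, Psma4 with Tsc1 loss and Psmb6 with Ppara loss. Core genes were higher in DKO than in Tsc1 L-/- livers, 11 of 14 called (against 16.9% of all genes) and a median of 0.35. The calls were 6 of 7 alpha and 5 of 7 constitutive beta subunits, with log2 fold changes from 0.25 (Psma4) to 0.75 (Psma5), and the 3 not called were Psma6 (0.27), Psmb1 (0.21) and Psmb7 (0.28). Without Tsc1 L-/- replicate 3, 5 of the 14 were called (against 14.3% of all genes). In DKO against control livers the median was 0.12, and 2 were called (against 19.3% of all genes), Psma5 (log2 change 0.44, edgeR adjusted p = 0.0147, lost in the fit of all 24 libraries) and Psmb5.

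Psmb5 (chr14:54614120-54617995, ENSMUSG00000022193), the chymotrypsin-like subunit, was higher in Cpt2 L-/- livers and in 2 of the 4 DKO livers. Its level was 123, 129.6, 103 and 127 CPM in the 4 control livers, 129, 154, 82.4 and 113 in Tsc1 L-/-, 198, 182, 167 and 193 in Cpt2 L-/- and 126, 234, 256 and 129 in DKO livers. All 4 Cpt2 L-/- livers lay above all controls (log2 change 0.59, SE 0.22, edgeR adjusted p = 0.0463). The DKO livers split, with replicates 2 and 3 above all controls and replicates 1 and 4 inside the control range, and the DKO difference from control (log2 change 0.61, SE 0.22, edgeR adjusted p = 0.0338) was lost in 8 of 25 alternative fits (adjusted p from 0.00969 to 0.134), among them those without DKO replicate 2 or 3 and without control replicate 1, 3 or 4. The Cpt2 L-/- call was lost in 12 of 25 alternative fits (adjusted p from 0.00244 to 0.103). In Ppara KO livers Psmb5 was at 148, 107, 138 and 118 CPM and in Cpt2 Ppara KO livers at 338, 238, 148 and 137, where replicates 1 and 2 lay far above every Ppara KO library and replicates 3 and 4 did not.
Other genes of chromosome 14 split the DKO livers alike. Rnase4 (chr14:51091077-51106151), a secreted ribonuclease, was at 962, 869.5, 915 and 1046 CPM in control, 142, 173, 168.5 and 135.5 in Cpt2 L-/- and 467, 106, 103 and 607.5 in DKO livers. DKO replicates 2 and 3 sat near the Cpt2 L-/- livers and replicates 1 and 4 between these and the controls. Of 14 chromosome 14 genes, Psmb5 among them, that set DKO replicates 2 and 3 apart from 1 and 4, the Cpt2 L-/- mean was nearer to replicates 2 and 3 in 10 and the control mean in 5. These genes were picked after their values were seen. The part of this arrangement in the higher Psmb5 level was not tested.

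The other catalytic subunits, Psmb6 and Psmb7, were not called with loss of Tsc1 or of Cpt2 alone. Psmb6 (chr11:70525367-70527858), the caspase-like subunit, was at 153, 175, 125 and 152 CPM in control, 132, 129, 119 and 129.5 in Tsc1 L-/-, 128, 136, 148 and 135 in Cpt2 L-/- and 164, 178, 157 and 155 in DKO livers. It was higher in DKO than in Tsc1 L-/- livers with no overlap (log2 change 0.35, SE 0.11, edgeR adjusted p = 0.0169), a call lost in 3 of 25 alternative fits (adjusted p from 0.00217 to 0.237). Ppara KO livers held 117, 82.8, 95.4 and 92.01 CPM, below all controls (log2 change −0.65, SE 0.23, edgeR adjusted p = 0.0423), a call lost in 12 of 26 alternative fits (adjusted p from 0.00623 to 0.112). Cpt2 Ppara KO livers held 278, 209.6, 129 and 111 CPM.
Psmb7 (chr2:38588036-38644087), the trypsin-like subunit, was called in no comparison of the reported fits. Over the alternative fits its lowest adjusted p was 0.00612 in DKO against Tsc1 L-/- and 0.0180 in Ppara KO against control livers. It was 0.0367 in DKO against control, 0.0469 in DKO against Cpt2 L-/- and 0.0493 in Cpt2 Ppara KO against Ppara KO livers. It was at 178, 198, 150.2 and 178 CPM in control, 165, 159.6, 135 and 161 in Tsc1 L-/-, 151, 161, 188 and 159.7 in Cpt2 L-/-, 181, 191, 198 and 188 in DKO, 135, 114, 121 and 138 in Ppara KO and 241, 183, 136 and 126 in Cpt2 Ppara KO livers. Ppara KO livers lay below the controls without overlap but short of the threshold (log2 change −0.48, edgeR adjusted p = 0.0636).

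The core genes Psma4 and Psmb3 were called in comparisons with few calls. Psma4, an alpha ring subunit, was at 93.0, 99.2, 88.8 and 97.2 CPM in control and 73.0, 71.1, 74.4 and 82.1 in Tsc1 L-/- livers, which did not overlap (log2 change −0.33, SE 0.10, edgeR adjusted p = 0.0424), a call lost in 18 of 25 alternative fits (adjusted p from 0.00713 to 0.355). Psmb3, a structural beta subunit, was at 84.6, 90.8, 81.1 and 72.3 CPM in Cpt2 L-/- and 98.1, 116, 95.1 and 118 in DKO livers, again without overlap (log2 change 0.39, SE 0.11, edgeR adjusted p = 0.0218), a call lost in 6 of 25 alternative fits (adjusted p from 0.0110 to 0.220). It had a positive Tsc1 and Cpt2 interaction (0.65, edgeR adjusted p = 0.0361), lost in 16 of 24 alternative fits (adjusted p from 0.00621 to 0.367). Psma5 was at 52.9, 63.1, 41.3 and 68.7 CPM in Tsc1 L-/- and 90.6, 99.3, 86.6 and 104 in DKO livers (log2 change 0.75, SE 0.13, edgeR adjusted p = 3.24e-04), and all 4 DKO values lay above all Tsc1 L-/- values.

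In the Ppara groups most core calls depended on which libraries were in the fit. The median core subunit, as a log2 ratio to the control mean, was at −0.0033, −0.58, −0.39 and −0.55 in the 4 Ppara KO livers and at 0.98, 0.44, −0.15 and −0.06 in the 4 Cpt2 Ppara KO livers, so that replicates 1 and 2 of the latter stood above all others. Of the 14 core genes, 9 were called higher in Cpt2 Ppara KO than in Ppara KO livers (against 12.9% of all genes), with a median of 0.73. The largest were Psma7 (131, 89.8, 105 and 102 against 356, 222, 117 and 129 CPM; log2 change 0.92, edgeR adjusted p = 0.0214), Psmb6 (117, 82.8, 95.4 and 92.01 against 278, 209.6, 129 and 111; log2 change 0.89, edgeR adjusted p = 0.0136), Psma5 (87.8, 43.5, 53.4 and 45.9 against 192, 107, 58.0 and 71.7; log2 change 0.87, edgeR adjusted p = 0.0364), Psma3 (136, 103, 110.3 and 94.6 against 312, 203, 139 and 133; log2 change 0.80, edgeR adjusted p = 0.0183) and Psmb1 (109, 84.4, 97.0 and 90.2 against 248, 161, 127 and 128; log2 change 0.78, edgeR adjusted p = 0.0115). Of these 5, only Psmb1 had groups that did not overlap, and each call was lost in 2 to 7 of 26 alternative fits. Without Cpt2 Ppara KO replicate 1, 2 of the 14 were called (against 5.74% of all genes) and the median was 0.43, and with the gene length term 1 was called at a median of 0.19. Without replicate 1 of both groups, 7 were called, and the share of all genes in that fit is not given here. Against Cpt2 L-/- livers the core median was 0.37 and turned to −0.07 with the gene length term. The shares of ribosomal protein reads in Cpt2 Ppara KO replicates 1 to 4, 5.65, 2.79, 2.13 and 2.09%, ran high in the same libraries, and their part in this result was not tested.

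**Figure D2:**
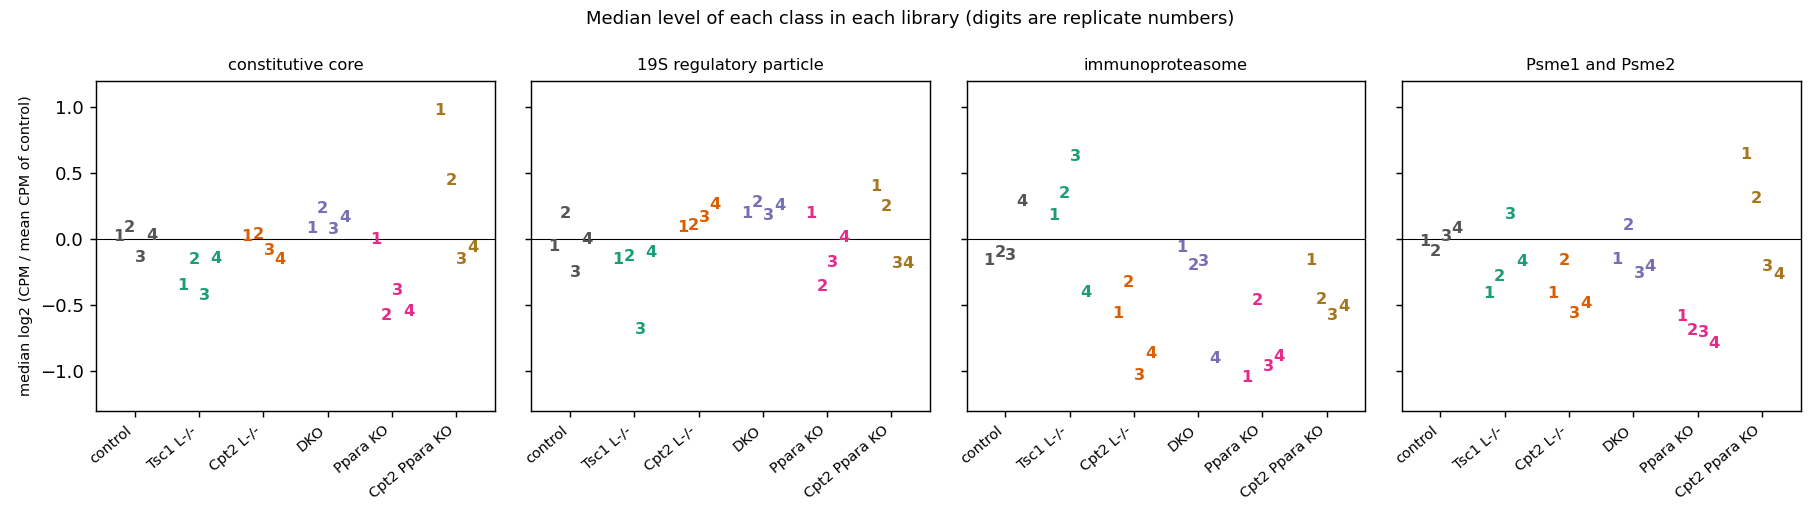
Median log2 ratio to the control mean over the 14 constitutive core subunits, the 17 subunits of the 19S particle, the 3 immunoproteasome subunits and the pair Psme1 and Psme2, with 1 point per library and genotypes along the horizontal axis. The core points of Cpt2 Ppara KO livers spread from −0.15 to 0.98, while DKO livers sit between 0.07 and 0.23.

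In the 19S particle the rises in Cpt2 L-/- against control livers lay in a few non-ATPase subunits. The lid subunit Psmd8, the ubiquitin receptor Psmd4 and the lid subunit Psmd11 rose with Cpt2 loss, in Cpt2 L-/- and in DKO livers, while the 6 ATPases had a median of 0.01 in Cpt2 L-/- against control livers. Psmd8 rose further in DKO livers, and rose in Ppara KO livers too.

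Psmd8 (chr7:29174188-29180701, ENSMUSG00000030591) was at 121, 156, 110.0 and 171 CPM in control and 149, 179, 99.7 and 144 in Tsc1 L-/- livers, which overlapped. It was at 329, 282, 223 and 289.9 in Cpt2 L-/- and 406, 539.9, 484 and 419 in DKO livers, and no library of these groups fell to the control range. The differences from control were 0.99 in Cpt2 L-/- livers (SE 0.18, edgeR adjusted p = 4.47e-04) and 1.72 in DKO livers (SE 0.18, edgeR adjusted p = 1.98e-06). DKO livers also lay above Cpt2 L-/- livers (log2 change 0.73, SE 0.18, edgeR adjusted p = 0.00906) and above Tsc1 L-/- livers (log2 change 1.69, SE 0.18, edgeR adjusted p = 3.43e-06), each without overlap. Psmd8 was at 284, 267, 325 and 219.9 CPM in Ppara KO livers, above all controls (log2 change 0.97, SE 0.27, edgeR adjusted p = 0.0113). It spread over 727, 500.2, 280.1 and 301 CPM in Cpt2 Ppara KO livers, and neither difference from Cpt2 L-/- (log2 change 0.68, edgeR adjusted p = 0.0783) nor from Ppara KO (log2 change 0.70, edgeR adjusted p = 0.0589) was called. The calls for Psmd8 held in all alternative fits, except that DKO against Cpt2 L-/- was lost in the fit of all 24 libraries. Psmd8 shares no bases with a neighbouring gene in the table.

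Psmd4 (chr3:95032694-95042614, ENSMUSG00000005625) was at 133, 174, 109 and 136 CPM in control, 103, 104, 63.9 and 109 in Tsc1 L-/-, 225, 267, 283 and 290.3 in Cpt2 L-/- and 187, 230.0, 213 and 251 in DKO livers. Tsc1 L-/- livers lay below all controls without a call (log2 change −0.55, edgeR adjusted p = 0.0555), and Cpt2 L-/- and DKO livers lay above all controls. The differences were 0.92 in Cpt2 L-/- livers (SE 0.17, edgeR adjusted p = 4.15e-04), 0.66 in DKO livers (SE 0.17, edgeR adjusted p = 0.00444) and 1.21 in DKO against Tsc1 L-/- livers (SE 0.17, edgeR adjusted p = 3.48e-05). In Cpt2 Ppara KO livers Psmd4 was at 229, 189, 111 and 118 CPM, lower than in Cpt2 L-/- livers (log2 change −0.72, SE 0.22, edgeR adjusted p = 0.0331) in a call lost in 6 of 26 alternative fits (adjusted p from 0.00605 to 0.0878). Ppara KO livers, at 142, 101, 129 and 126 CPM, lay in the control range except for 1 library under it.

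Psmd11 (chr11:80428615-80473248), a lid scaffold, was at 127, 135, 113 and 125 CPM in control, 110.2, 114, 71.6 and 135 in Tsc1 L-/-, 208, 178, 182 and 211 in Cpt2 L-/- and 159.8, 197, 183 and 202 in DKO livers. All Cpt2 L-/- and DKO livers lay above all controls, by 0.62 in Cpt2 L-/- (SE 0.15, edgeR adjusted p = 0.00407) and by 0.56 in DKO livers (SE 0.15, edgeR adjusted p = 0.00654), and both calls held in every alternative fit. In Cpt2 Ppara KO livers, which also lack Cpt2, Psmd11 was at 185, 131, 110.0 and 138 CPM against 181, 112, 137 and 126 in Ppara KO livers, a difference of 0.0011 (edgeR adjusted p = 0.997).

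Psmd14 (chr2:61711694-61800376), the lid enzyme that removes ubiquitin chains, was the 19S subunit in which the effect of Cpt2 loss differed with Tsc1. It was at 53.1, 52.9, 49.6 and 49.9 CPM in control, 46.5, 49.7, 37.9 and 53.6 in Tsc1 L-/- and 48.2, 49.9, 43.7 and 48.3 in Cpt2 L-/- livers, which overlapped, and at 80.1, 81.9, 62.7 and 71.4 in DKO livers, above all of them. The interaction was 0.79 (SE 0.16, edgeR adjusted p = 0.0144), lost only in the fit of all 24 libraries. The DKO difference was 0.66 from Cpt2 L-/- livers (SE 0.11, edgeR adjusted p = 9.03e-04), lost in the same fit alone. Psmd14 was at 113, 66.3, 39.1 and 56.0 CPM in Cpt2 Ppara KO livers against 66.5, 31.1, 37.8 and 33.9 in Ppara KO livers, with no call (log2 change 0.67, edgeR adjusted p = 0.0670).

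**Figure D3:**
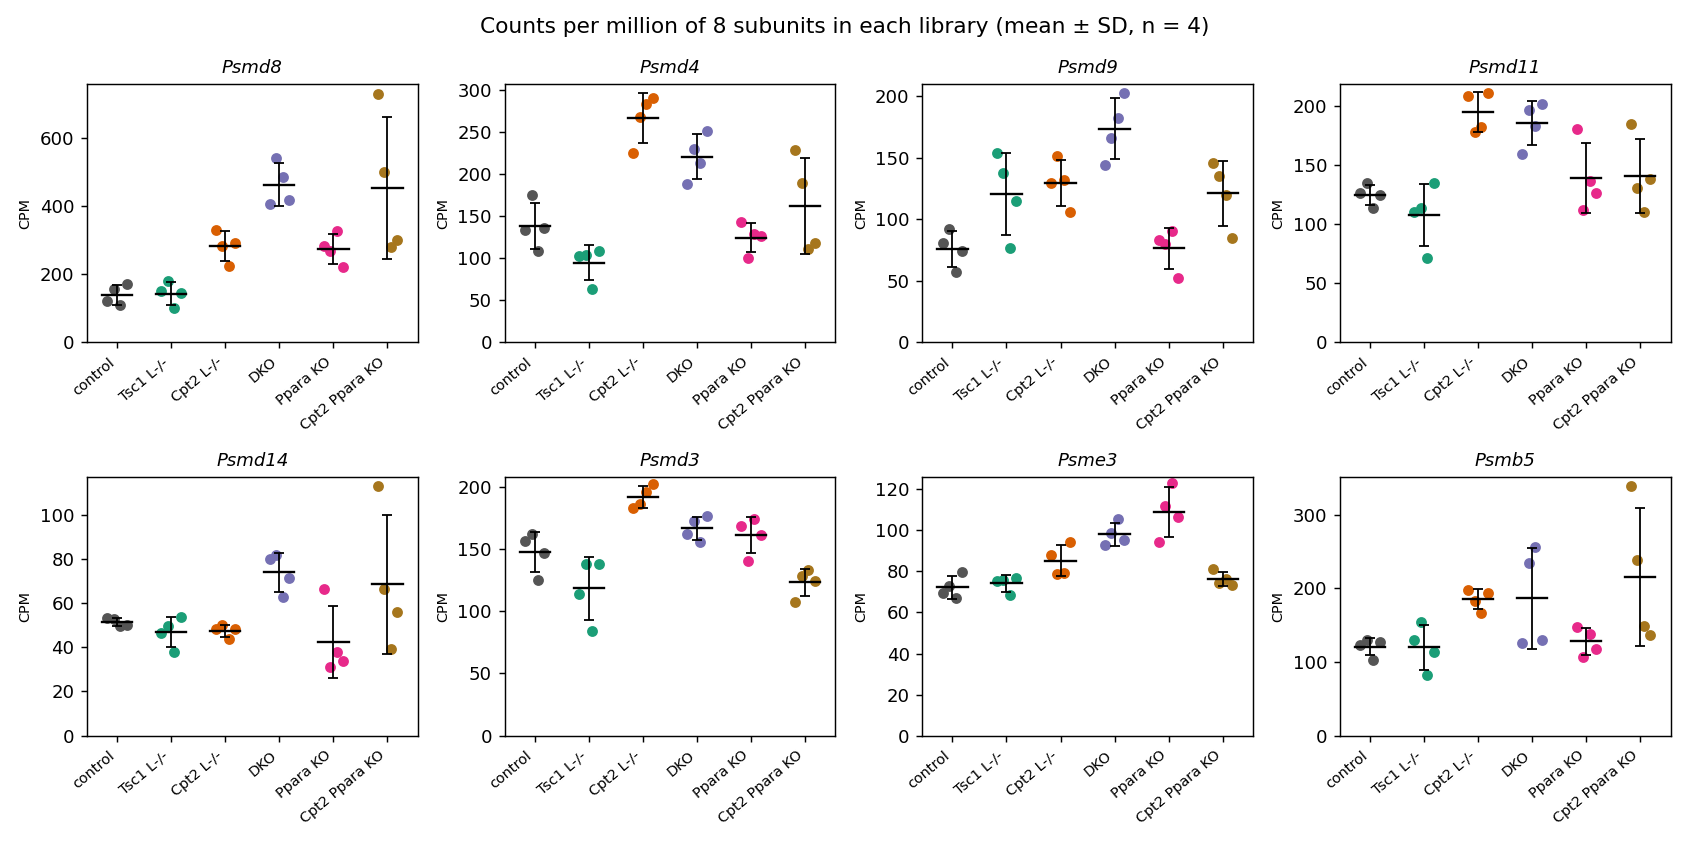
CPM of 8 subunit genes in each library (points) with the group mean and SD (bars), by genotype, n = 4 libraries a group, each vertical axis starting at 0. Psmd8 runs from 110.0 to 171 CPM in control and from 406 to 539.9 CPM in DKO livers, and Psmb5 is split in DKO livers.

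The base scaffold Psmd2 and the lid subunit Psmd3 were called lower in Cpt2 Ppara KO than in Cpt2 L-/- livers. The core median there was 0.37, or −0.07 with the gene length term. Psmd2 was at 302, 293, 355 and 344 CPM in Cpt2 L-/- and 168, 222, 199 and 229 in Cpt2 Ppara KO livers, and Psmd3 at 183, 186, 196 and 202 and 108, 128, 133 and 124. Both were lower in Cpt2 Ppara KO livers without overlap, Psmd2 by a log2 fold change of −0.66 (SE 0.19, edgeR adjusted p = 0.0265) and Psmd3 by −0.63 (SE 0.14, edgeR adjusted p = 0.00694). The Psmd2 call was lost in 5 of 26 alternative fits (adjusted p from 0.00465 to 0.0829), and that of Psmd3 in none of the 26. Psmd3 was also lower in Cpt2 Ppara KO than in Ppara KO livers (169, 141, 174 and 161 CPM; log2 change −0.41, edgeR adjusted p = 0.0418), a call lost in 17 of 26 alternative fits (adjusted p from 0.00498 to 0.180). It had a negative Cpt2 and Ppara interaction (−0.75, edgeR adjusted p = 0.0126).

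Over the particle as a whole, 14 of 17 subunits were higher in DKO than in Tsc1 L-/- livers (5 of 6 ATPases and 9 of 11 non-ATPases, median 0.49), against 16.9% of all genes. Without Tsc1 L-/- replicate 3, 11 were higher (against 14.3%). In DKO against control livers 6 of 17 were higher (against 19.3% of all genes), Psmd8, Psmd4, Psmd11, Psmd14, the ATPase Psmc4 (log2 change 0.38, edgeR adjusted p = 0.0384, lost in 9 of 25 alternative fits) and the lid subunit Psmd7 (log2 change 0.29, edgeR adjusted p = 0.0472, lost in 13 of 25). The ATPase Psmc1 and the non-ATPases Psmd6 and Psmd13 were called in no comparison of the reported fits, and their log2 fold changes in DKO against Tsc1 L-/- livers were 0.16, 0.17 and 0.13. The 19S median in Cpt2 Ppara KO against Ppara KO livers, 0.23, fell to 0.01 without Cpt2 Ppara KO replicate 1 and to −0.01 with the gene length term, and the core median of 0.73 stayed above 0 in both.

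**Figure D4:**
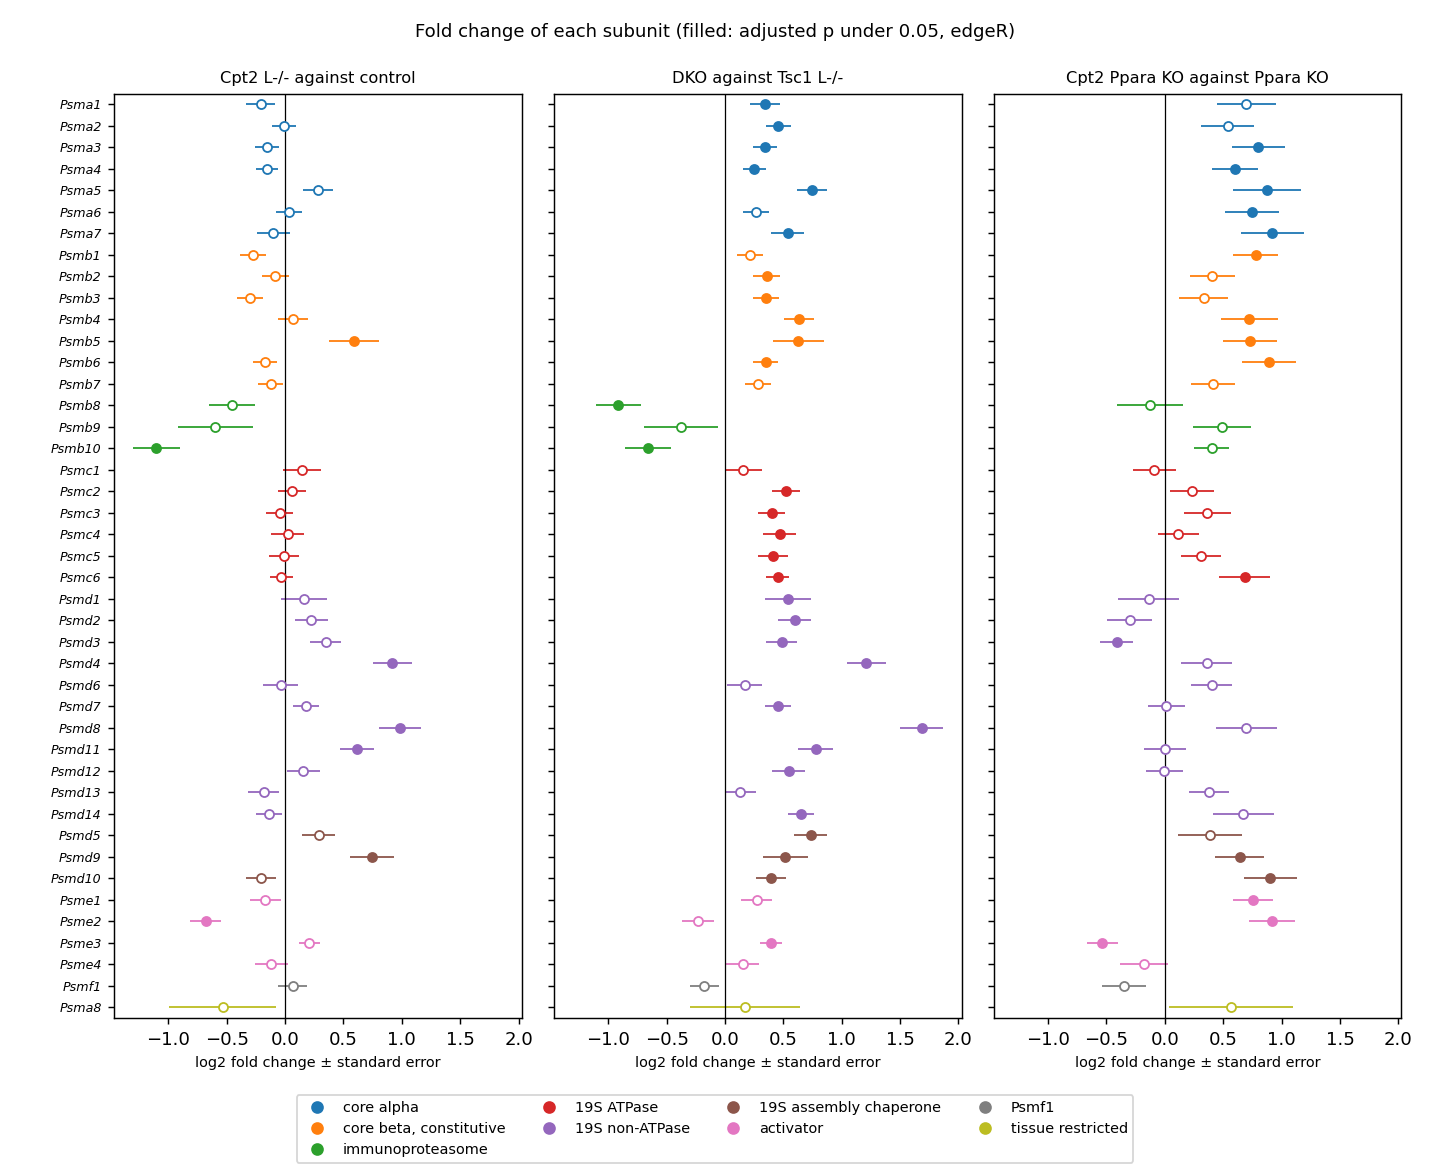
Log2 fold change of each tested subunit gene, with its SE, in Cpt2 L-/- against control, DKO against Tsc1 L-/- and Cpt2 Ppara KO against Ppara KO livers, grouped by class on a shared horizontal axis. Filled points are genes called at an edgeR adjusted p under 0.05. In DKO against Tsc1 L-/- livers nearly all core and 19S genes lie right of 0 and the immunoproteasome genes left of it.

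The chaperones that place the ATPases during assembly, Psmd5, Psmd9 and Psmd10, were all higher in DKO than in Tsc1 L-/- livers. Psmd9 (chr5:123228190-123250131) was at 80.9, 91.9, 56.8 and 74.4 CPM in control, 153, 138, 76.4 and 115 in Tsc1 L-/-, 129.6, 151, 132 and 106 in Cpt2 L-/- and 144, 166, 182 and 202 in DKO livers. It was the subunit gene called higher with Tsc1 loss alone (log2 change 0.66, SE 0.19, edgeR adjusted p = 0.0448), where Tsc1 L-/- replicate 3 lay in the control range, a call lost in 12 of 25 alternative fits (adjusted p from 0.00550 to 0.132). Its rise in Cpt2 L-/- (log2 change 0.74, SE 0.19, edgeR adjusted p = 0.00654) and DKO livers (log2 change 1.18, SE 0.19, edgeR adjusted p = 1.39e-04) held in all of them, and no library of either group overlapped the controls. It was at 83.2, 80.2, 90.0 and 52.3 CPM in Ppara KO livers and in Cpt2 Ppara KO livers at 145, 135, 119.7 and 84.9. It was higher in the second with overlap (log2 change 0.64, SE 0.21, edgeR adjusted p = 0.0338), a call lost in 8 of 26 alternative fits (adjusted p from 0.0125 to 0.112).

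Psmd5 was at 25.7, 32.3, 31.2 and 32.2 CPM in control, 24.0, 25.5, 27.6 and 33.8 in Tsc1 L-/- and 39.1, 55.2, 43.1 and 48.6 in DKO livers. The last lay above both groups (0.61 and 0.74, edgeR adjusted p = 0.00280 and 6.80e-04), the first lost in the fit of all 24 libraries. Psmd5 (35.5 CPM on average) and Cutal (25.8) overlap by 573 bases on opposite strands, with the counting's strand setting not given. Psmd10, the scarcest of the chaperones, was at 10.2, 11.2, 8.57 and 9.60 CPM in Cpt2 L-/-, 13.4, 12.3, 14.5 and 11.9 in DKO, 12.2, 7.91, 8.72 and 7.90 in Ppara KO and 25.1, 20.9, 13.4 and 10.9 in Cpt2 Ppara KO livers. It was higher in DKO than in Cpt2 L-/- livers (log2 change 0.41, SE 0.13, edgeR adjusted p = 0.0344), a call lost in 15 of 25 alternative fits (adjusted p from 0.0181 to 0.242). It was higher in Cpt2 Ppara KO than in Cpt2 L-/- livers (log2 change 0.82, edgeR adjusted p = 0.0209), a call lost in 6 of 26 alternative fits (adjusted p from 0.00554 to 0.0731). It was also higher in Cpt2 Ppara KO than in Ppara KO livers (log2 change 0.91, SE 0.23, edgeR adjusted p = 0.0124), a call lost only in the fit of 2 groups, and its Cpt2 and Ppara interaction was positive (1.11, edgeR adjusted p = 0.0206) but was lost with the gene length term (adjusted p = 0.0822).

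The immunoproteasome subunits were called lower in several comparisons. Psmb10 was lower in Cpt2 L-/- and DKO livers than in control, Psmb8 and Psmb10 were lower in DKO than in Tsc1 L-/- livers, and Psmb9 and Psmb10 were lower in Ppara KO livers. Psmb8 (chr17:34197721-34201454) and Psmb9 (chr17:34181988-34187764) are neighbours in the MHC region, and Psmb10 is at chr8:105935728-105938392. H2-K1, a class I gene of the same region, was at 41.1 CPM in Tsc1 L-/- replicate 4 and 27.5 in DKO replicate 4 against 656 to 2030 CPM in the other 22 libraries. Psmb8, Psmb9 and Psmb10 were each lowest of their group in these 2 libraries, whose part in the values was not tested.

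Psmb10, which replaces Psmb7, was at 21.5, 21, 24.97 and 28.9 CPM in control, 24.1, 22.2, 37.2 and 18.3 in Tsc1 L-/-, 12.2, 12.9, 10.5 and 10.2 in Cpt2 L-/- and 17.7, 20.95, 13.4 and 12.9 in DKO livers. All Cpt2 L-/- livers lay below all controls (log2 change −1.10, SE 0.20, edgeR adjusted p = 4.49e-04), and so did the DKO livers, if by little in replicate 2 (log2 change −0.58, SE 0.20, edgeR adjusted p = 0.0290). Ppara KO livers held 13.1, 11.2, 12.4 and 12.98 CPM, again below all controls (log2 change −0.96, SE 0.15, edgeR adjusted p = 1.92e-04), and Cpt2 Ppara KO livers held 15.6, 17.6, 16.1 and 17.2, between the Ppara KO and the control livers. Psmb10 was higher in Cpt2 Ppara KO than in Cpt2 L-/- livers (log2 change 0.54, edgeR adjusted p = 0.0192), a call lost in 8 of 26 alternative fits (adjusted p from 0.00407 to 0.342). The Cpt2 and Ppara interaction was 1.504 (SE 0.21, edgeR adjusted p = 2.83e-04). The falls in Cpt2 L-/- and Ppara KO livers and the interaction held in every alternative fit, and the call in DKO against control livers was lost in 6 of 25 alternative fits (adjusted p from 0.00864 to 0.131). In DKO against Tsc1 L-/- livers the fall (log2 change −0.66, edgeR adjusted p = 0.0165) was lost in 5 of 25 alternative fits (adjusted p from 0.00507 to 0.0848), among them those without Tsc1 L-/- replicate 3, which had the highest value, and without DKO replicate 3 or 4.

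Psmb8, which replaces Psmb5, was at 16.8, 18.2, 9.76 and 19.7 CPM in control, 24.1, 22.6, 29.2 and 21 in Tsc1 L-/-, 10.9, 15.3, 10.1 and 11.4 in Cpt2 L-/- and 15.4, 11.3, 14.3 and 10.8 in DKO livers. Tsc1 L-/- livers lay above all others of these groups, but the difference from control was not called (log2 change 0.59, edgeR adjusted p = 0.0782). DKO livers were lower than Tsc1 L-/- livers (log2 change −0.91, SE 0.20, edgeR adjusted p = 0.00172), a call that held in every alternative fit. Psmb8 was at 7.76, 19.6, 11.3 and 17.7 CPM in Ppara KO and 14.4, 16.6, 11.7 and 9.88 in Cpt2 Ppara KO livers, which overlapped with control.
Psmb9, which replaces Psmb6, was at 12.2, 13.4, 13.2 and 18.6 CPM in control, 16.3, 18.2, 21.3 and 9.47 in Tsc1 L-/-, 12.3, 11.5, 7.03 and 7.90 in Cpt2 L-/- and 14.1, 13.2, 18.3 and 5.13 in DKO livers, all overlapping. It was at 6.39, 10.4, 5.98 and 6.66 CPM in Ppara KO livers, below all controls (log2 change −0.97, SE 0.25, edgeR adjusted p = 0.00713), and at 14.05, 9.39, 8.55 and 10.1 in Cpt2 Ppara KO livers, with a positive Cpt2 and Ppara interaction (1.09, edgeR adjusted p = 0.0304) that was lost in 8 of 25 alternative fits (adjusted p from 0.0111 to 0.0792). Psmb9 and Tap1 overlap by 212 bases on opposite strands, and the strand setting of the counting is not given in the sources used here.

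The ratio of each inducible subunit to the one it replaces was taken per length, from FPKM, as a description. Psmb10 stood at 12.7 ± 2.73% of Psmb7 in control livers (mean ± SD, n = 4), 15.4 ± 6.67% in Tsc1 L-/-, 6.40 ± 1.12% in Cpt2 L-/-, 7.85 ± 1.94% in DKO, 8.95 ± 0.303% in Ppara KO and 9.51 ± 2.84% in Cpt2 Ppara KO livers. Psmb8 stood at 6.00 ± 1.19% of Psmb5 in control, 9.98 ± 4.23% in Tsc1 L-/-, 2.96 ± 0.5995% in Cpt2 L-/-, 3.54 ± 1.53% in DKO, 5.34 ± 2.75% in Ppara KO and 3.004 ± 0.727% in Cpt2 Ppara KO livers. Psmb9 stood at 3.23 ± 0.732% of Psmb6 in control, 4.33 ± 1.48% in Tsc1 L-/-, 2.40 ± 0.746% in Cpt2 L-/-, 2.60 ± 1.16% in DKO, 2.64 ± 1.07% in Ppara KO and 2.11 ± 0.690% in Cpt2 Ppara KO livers. The mean ratio was lowest in Cpt2 L-/- livers for Psmb8 and Psmb10 and in Cpt2 Ppara KO livers for Psmb9, and Tsc1 L-/- replicate 3 carried the highest of the 24 libraries in all 3 ratios.

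**Figure D5:**
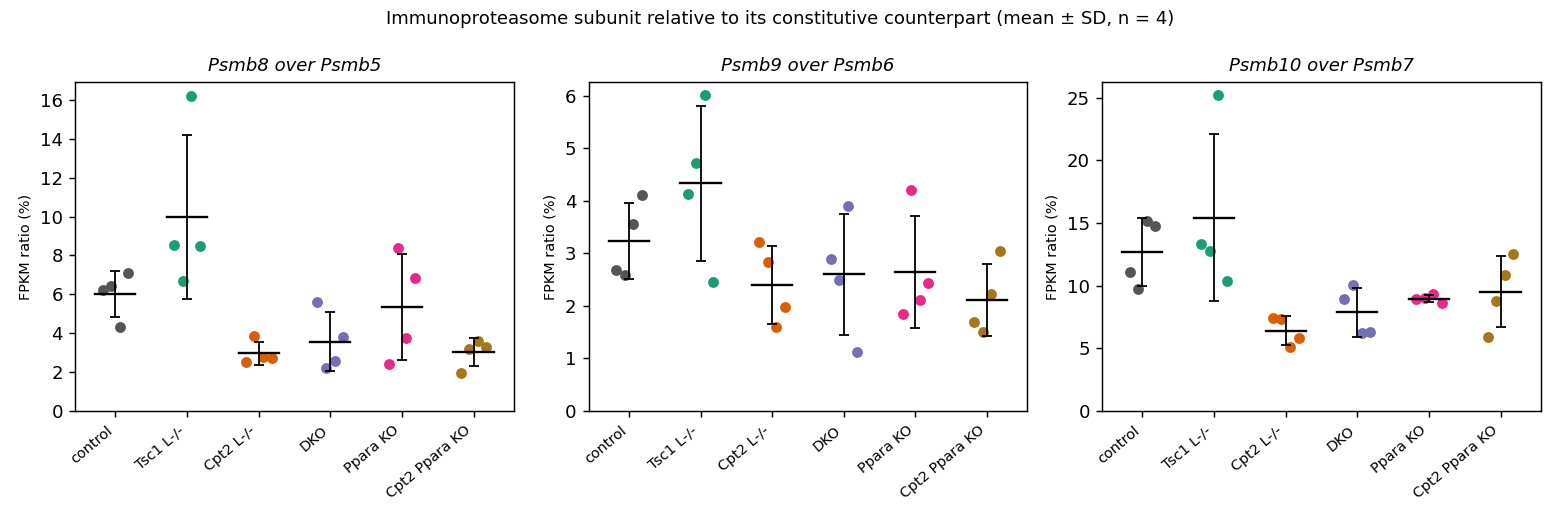
FPKM of Psmb8, Psmb9 and Psmb10 as a percentage of the FPKM of Psmb5, Psmb6 and Psmb7 in the same library, 1 point per library with the group mean, by genotype. The Psmb10 ratio averages 12.7% in control and 6.40% in Cpt2 L-/- livers.

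Immune cells carry immunoproteasomes, so their markers were read beside these values. The 14 leukocyte markers summed to 40.3 to 59.6 CPM in control, 30.8 to 47.3 in Tsc1 L-/-, 27.9 to 47.8 in Cpt2 L-/-, 18.6 to 31.6 in DKO, 36.5 to 45.0 in Ppara KO and 36.6 to 53.7 in Cpt2 Ppara KO livers, and 6 to 8 of the 14 were above 3 counts in every library of a group. Ms4a1 and Cd8a were at or under 3 counts in all DKO livers. Of the tested leukocyte markers, 4 of 8 fell in DKO livers (50% against 17.1% of all genes) and 2 of 8 in Ppara KO livers (25% against 13.2%), and their Cpt2 L-/- sums overlapped the controls. Of 9 macrophage markers, 7 fell (77.8% against 17.1%) and 1 (Cd68) rose in DKO against control livers. The part of these cells in the lower immunoproteasome was not tested.

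The PA28 pair fell in Ppara KO livers and was higher again in Cpt2 Ppara KO livers. Psme1 (chr14:55578123-55581529) was at 63.4, 57.8, 68.2 and 64.5 CPM in control, 46.6, 45.9, 45.1 and 36.3 in Ppara KO and 102, 76.7, 57.3 and 62.8 in Cpt2 Ppara KO livers. Psme2 (chr14:55587441-55591113) was at 66.4, 65.2, 65.2 and 74.4 CPM in control, 40.9, 35.8, 35.9 and 39.6 in Ppara KO and 103, 85.8, 56.3 and 47.4 in Cpt2 Ppara KO livers. Both were lower in Ppara KO livers than in all controls (−0.55, SE 0.17, and −0.84, SE 0.20, with edgeR adjusted p = 0.0215 and 0.00482), and the Psme1 call was lost without control replicate 3 or Ppara KO replicate 4. Both were higher in Cpt2 Ppara KO than in all Ppara KO livers (0.76, SE 0.17, and 0.92, SE 0.20, with edgeR adjusted p = 0.00761 and 0.00685). Both of these calls were lost in the fit of the 2 groups alone, and that of Psme2 also with the gene length term, its value reaching as low as 0.31 over the alternative fits (highest adjusted p = 0.149).

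With Cpt2 loss alone Psme2 fell, to 43.2, 52.2, 37.4 and 39.6 CPM (log2 change −0.68, SE 0.14, edgeR adjusted p = 0.00100), with no overlap with control, and Psme1, at 56.3, 65.9, 52.5 and 55.6 CPM, was not called (log2 change −0.17, edgeR adjusted p = 0.374). In DKO livers Psme2 was at 57.1, 69.4, 54.4 and 49.3 CPM, higher than in Cpt2 L-/- livers (log2 change 0.43, SE 0.14, edgeR adjusted p = 0.0341) in a call lost in 10 of 25 alternative fits (adjusted p from 0.0144 to 0.222), and Psme1 at 61.1, 71.6, 55.5 and 65.2. In Tsc1 L-/- livers Psme1 was at 38.7, 50.5, 66.5 and 53.1 CPM and Psme2 at 63.0, 57.6, 84.1 and 64.0. The Cpt2 and Ppara interaction was 1.60 for Psme2 (SE 0.28, edgeR adjusted p = 0.00128), and it was called in every alternative fit. It fell to 0.85 with the gene length term, where that of Psmb10 was 1.01. Psme2b, a near copy of Psme2, stayed at 0.753 to 3.85 CPM.

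Psme3 (PA28 gamma, chr11:101316213-101323537), the activator of the nucleus, ran the other way from the PA28 pair in the Ppara groups. It was at 69.5, 72.9, 66.9 and 79.7 CPM in control, 75.5, 76.0, 68.3 and 76.7 in Tsc1 L-/-, 88.1, 78.8, 79.2 and 94.4 in Cpt2 L-/- and 92.9, 98.7, 105 and 95.1 in DKO livers. DKO livers lay above all controls (log2 change 0.43, SE 0.09, edgeR adjusted p = 0.00167). Ppara KO livers held 94.1, 112, 123 and 106 CPM, above all controls (log2 change 0.59, SE 0.13, edgeR adjusted p = 0.00315), and Cpt2 Ppara KO livers held 81.4, 74.4, 76.1 and 73.3, below all Ppara KO livers (log2 change −0.54, SE 0.13, edgeR adjusted p = 0.0105), a call lost only in the fit of the 2 groups alone. Its Cpt2 and Ppara interaction was negative (−0.74, edgeR adjusted p = 0.00950).
Psme4 (PA200), a nuclear activator, and Psmf1 (PI31), described as an inhibitor of the core, were called in no comparison of the reported fits. Psme4 passed in DKO against Cpt2 L-/- livers in an alternative fit (lowest adjusted p = 0.0353). Psme4 was at 152, 188, 169 and 165 CPM in control, 189.5, 148, 142 and 179.9 in Tsc1 L-/-, 138, 119, 174 and 203 in Cpt2 L-/-, 179.6, 186, 186 and 185 in DKO, 163, 109, 113 and 196 in Ppara KO and 112, 135, 122 and 152 in Cpt2 Ppara KO livers. Psmf1 was at 31.2, 33.6, 26.4 and 32.0 CPM in control, 41.6, 40.7, 33.4 and 39.0 in Tsc1 L-/-, 32.5, 38.8, 28.8 and 31.3 in Cpt2 L-/-, 29.0, 35.1, 33.6 and 40 in DKO, 25.6, 45.2, 39.9 and 25.7 in Ppara KO and 26.4, 29.6, 26.6 and 26.5 in Cpt2 Ppara KO livers.

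Genes that build, serve or control the proteasome but are not among the 44 members were read from lists. Of the 5 assembly factors of the core, 4 were higher in DKO than in Cpt2 L-/- livers (against 10.9% of all genes): Pomp, the maturation factor (79.6, 72.0, 50.5 and 49.6 against 92.5, 108, 83.9 and 97.7 CPM; log2 change 0.62, edgeR adjusted p = 0.00920), Psmg2 (0.56), Psmg3 (0.61) and Psmg4 (0.87), with Psmg1 at 0.04. Pomp and Psmg4 were lower in Cpt2 L-/- than in control livers (−0.73 and −0.57, edgeR adjusted p = 0.00120 and 0.0319). The core subunits had a median of −0.11 in Cpt2 L-/- against control livers.

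Of 15 proteasome-associated proteins, 6 were higher (40% against 16.2% of all genes) and 1 was lower (6.67% against 14.9%) in Cpt2 L-/- than in control livers, and 10 were higher in DKO than in Tsc1 L-/- livers (66.7% against 16.9%, median 0.48), or 9 without Tsc1 L-/- replicate 3 (against 14.3%). Zfand2a, a stress-induced partner of the 19S particle, rose by 1.31 in Cpt2 L-/- (SE 0.15, edgeR adjusted p = 7.43e-06) and by 0.99 in DKO livers (SE 0.15, edgeR adjusted p = 7.25e-05). In DKO against Tsc1 L-/- livers the deubiquitinase Usp14 (0.64) was among those higher. Shfm1, the small lid subunit also called Sem1, was the 1 lower in Cpt2 L-/- livers (log2 change −0.44, edgeR adjusted p = 0.0271). Of 10 genes for ubiquitin and its segregase, 4 were higher in DKO than in Tsc1 L-/- livers (40% against 16.9%), among them Ubb (0.68) and Vcp (0.41), and 2 without Tsc1 L-/- replicate 3.

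Nfe2l1, which drives subunit transcription, was at 200.1, 241, 197 and 196 CPM in control, 207, 131, 209 and 190.3 in Tsc1 L-/-, 236, 241, 306 and 297 in Cpt2 L-/- and 265, 248, 295 and 297 in DKO livers. It was higher in DKO than in control (log2 change 0.40, edgeR adjusted p = 0.0389) and Tsc1 L-/- livers (log2 change 0.58, edgeR adjusted p = 0.00513). In Ppara KO livers it was at 111, 64.2, 88.0 and 135 CPM and in Cpt2 Ppara KO livers at 88.3, 75.5, 98.3 and 113, lower than control (log2 change −1.08, SE 0.21, edgeR adjusted p = 0.00102) and Cpt2 L-/- (log2 change −1.52, SE 0.21, edgeR adjusted p = 1.84e-04) livers. The 2 Ppara groups differed by −0.11 in Nfe2l1. Their core median differed by 0.73, or by 0.43 without Cpt2 Ppara KO replicate 1 and 0.19 with the gene length term. The part of Nfe2l1 in the core values was not tested. Of its small Maf partners in the list (Maff, Mafg and Mafk), Maff (1.53) and Mafk (1.44) rose in Cpt2 L-/- livers (edgeR adjusted p = 0.00291 and 4.27e-06). Mafk rose in DKO livers (log2 change 1.66, edgeR adjusted p = 6.69e-07). Values of Mafg, and of Maff in DKO livers, are not given here. Nfe2l2 was called in no comparison, with log2 change 0.31, edgeR adjusted p = 0.0813 in DKO against control livers. These are RNA levels, while Nfe2l1 is known to be controlled as a protein.

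Most interferon response genes were lower with Cpt2 loss where Ppara was present, and fewer were called without Ppara. Of 17 of them, 11 fell in Cpt2 L-/- against control livers (64.7% against 14.9% of all genes, median −1.01), 14 in DKO against control livers (82.4% against 17.1%, median −1.38) and 13 in DKO against Tsc1 L-/- livers (76.5% against 15.2%, median −1.25), or 10 without Tsc1 L-/- replicate 3. In Cpt2 Ppara KO against Ppara KO livers 3 fell (17.6% against 12.6%, median −0.69), or 2 without Cpt2 Ppara KO replicate 1 (against 6.69%). The Cpt2 and Ppara interaction was called positive in 2 and negative in 1 of the 17, against 12% of all genes in each direction. The difference in counts called is therefore not read as a dependence on Ppara. Examples in Cpt2 L-/- livers were the GTPase Igtp (−1.93), Isg15, a ubiquitin-like modifier (−1.63), and Ifit1 (−1.53). In Ppara KO livers 4 rose (23.5% against 15.9%), among them Rsad2 (1.87) and Oas1a (1.78), and 2 fell (11.8% against 13.2%), Igtp (−2.14) and Iigp1 (−1.29).
Of 11 genes of antigen presentation, 3 fell in Cpt2 L-/- livers (27.3% against 14.9% of all genes), Erap1 (−0.71), which trims peptides, B2m (−0.55) and Tapbp (−0.42), and the list median was −0.31. With edgeR 0 rose there, also at an unadjusted p under 0.05 (0), and H2-K1 (0.45), Tap1 (0.41), H2-D1 (0.17) and Nlrc5 (0.13) were not called. In DKO against Tsc1 L-/- livers 5 fell (45.5% against 15.2%), with Irf1 at −1.06, and 4 without Tsc1 L-/- replicate 3. In Cpt2 Ppara KO against Ppara KO livers 7 fell (63.6% against 12.6%), with Nlrc5 at −1.05 and H2-K1 at −0.95, and 3 without Cpt2 Ppara KO replicate 1 (against 6.69%). Psme1 and Psme2 rose in that comparison.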

How the data were processed

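Polyadenylated RNA of 24 fasted livers was sequenced with a stranded kit. The authors deposited read counts per gene and FPKM made from the same counts, the latter scaled to gene length and to counted reads (recomputed here to within 9.1e-07). Per the submitters' processing notes, Bowtie 0.12.2, HTSeq 0.6.1, STAR 2.5, TopHat, STAR-Fusion, edgeR, DESeq2 and the builds mm8 and mm9 were named without roles, and the counting's strand setting is not given in the sources used here. Coordinates are those of the deposited table: all 44 subunit genes overlap their GRCm38 gene models, 30 with the same start and end.

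Counts were tested with edgeR 4.0.16 (R 4.3.3, TMM factors, robust quasi-likelihood F test, genes filtered at a minimum count of 10 and a total of 15). One fit covered control, Tsc1 L-/-, Cpt2 L-/- and DKO livers (16 libraries, 13641 genes) and the other control, Cpt2 L-/-, Ppara KO and Cpt2 Ppara KO livers (16 libraries, 13615 genes). The 10 comparisons, each adjusted by Benjamini-Hochberg over all genes tested, had a threshold of 0.05. The script was tested on simulated data. CPM use TMM factors over all 24 libraries. The precision of a value is set by its counts, between 14470968 and 20371204 a library. The p-values measure the spread between 4 livers a group, and each library has its own code in the labels, which no source used here says is an animal. No 2 libraries of a group agreed within sampling noise (36 pairs).

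Values by library are given for the catalytic and immunoproteasome subunits, the activators, Psmf1 and, per comparison, up to 5 further members with the largest called changes, and other genes come from fixed lists. Other subunits named were picked with their values in view. The members and lists were chosen with earlier results of these data known. Promoters are RefSeq windows (GRCm38.p6), of which 37 of 44 matched by symbol. Figures were drawn with matplotlib 3.10.9.

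Alternatives were scaling by RLE, all genes unfiltered, DESeq2 1.42.0, limma 3.58.1 on log2 FPKM (pseudocount 1 or 0.1), all 24 libraries in 1 fit, the 2 groups alone, a replicate block and leaving out each library. A gene length offset and leaving out replicate 1 of both Ppara groups were chosen after seeing the data.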

Additional observations from a re-analysis of the deposited data

Results flagged for a closer look

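In 17 of 258 gene and group combinations tested, 1 liver stood apart from the other 3 by more than the 95% critical gap (Dixon) for 4 values, and chance gives about 1 in 20. Tsc1 L-/- replicate 3 was the low liver in 5 of them. It was at 63.93 CPM in Psmd4 (the others at 102.6 to 108.5), 162.9 in Psmd2 (239.1 to 243.6), 50.86 in Psmd12 (87.35 to 88.36), 99.52 in Psmc3 (126.6 to 131.2) and 68.28 in Psme3 (75.53 to 76.7).

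Control livers gave 4 such values. Replicate 3 was low in Psmb4 (154.2 CPM, the others at 199.2 to 205.2) and Psmb2 (50.96, the others at 57.07 to 57.77). Replicate 1 was low in Psmd5 (25.73 CPM) and replicate 4 high in Psme2 (74.36 CPM). In DKO livers Psma4 was high in replicate 2 (96.89 CPM), Psmc1 low in replicate 4 (179.3) and Psme4 low in replicate 1 (179.6). In Ppara KO livers Psmb9 was high in replicate 2 (10.39 CPM) and Psme1 low in replicate 4 (36.26). Cpt2 L-/- replicate 1 was low in Psmd6 (79.91 CPM) and high in Psma8 (1.708 CPM, the others at 0.3545 to 0.5114), and Cpt2 Ppara KO replicate 2 was high in Psmf1 (29.57 CPM).

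The effect of a deletion differed between backgrounds, by edgeR's interaction test at an adjusted p under 0.05, in 12 of 86 tests. Of all genes, 1.09% were called positive and 1.28% negative for Tsc1 and Cpt2, and 12% each way for Cpt2 and Ppara. For Tsc1 and Cpt2 the difference between the 2 effects on the log2 scale was 0.6532 for Psmb3 and 0.7905 for Psmd14. For Cpt2 and Ppara it was 1.6 for Psme2, 1.504 for Psmb10, 1.115 for Psmd10, 1.088 for Psmb9, 1.065 for Psmb6, 1.055 for Psmb1, 0.9622 for Psma3 and 0.9276 for Psme1, and −0.7547 for Psmd3 and −0.741 for Psme3. The last 10 came from the fit that holds Cpt2 Ppara KO replicate 1. Without it 6 subunits were positive and 3 negative, with the share of all genes in that fit not given here. The Psma3 call was lost in 14 of 25 alternative fits, that of Psmb6 in 5 (down to 0.28, highest edgeR adjusted p = 0.458) and that of Psmb1 with the gene length offset (0.35, edgeR adjusted p = 0.252).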

How the results depend on the processing

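Of 72 named results that passed the threshold, 29 did so under every alternative run, and none of the 1823 alternative values reversed. Of 79 named results that did not pass, 40 were unchanged under every alternative. Of their 1984 alternative values, 35 were stronger and 41 had moved. The number of subunits called depended on the settings as follows, and the cause was not tested beyond fewer libraries or genes in a fit. For Tsc1 L-/- against control (2 called), 1 was called with no filter, 6 by DESeq2, 0 in the fit of all 24 libraries (6 at an unadjusted p under 0.05), 0 with 2 groups only (11 at an unadjusted p under 0.05) and 0 to 3 leaving out 1 library. For DKO against control (12), all 24 libraries gave 6 and limma on FPKM 23 at either pseudocount, where the median of all genes also moved by up to 0.17. For DKO against Cpt2 L-/- (5), all 24 libraries gave 0 (4 at an unadjusted p under 0.05), limma 10 at either pseudocount and the gene length offset 3. For DKO against Tsc1 L-/- (31), all 24 libraries gave 14. For the Tsc1 and Cpt2 interaction (2), no filter, limma at either pseudocount and the gene length offset gave 1, DESeq2 6 and all 24 libraries 0 (3 at an unadjusted p under 0.05). For Cpt2 Ppara KO against Cpt2 L-/- (6), all 24 libraries gave 10, 2 groups only 2 and the gene length offset 3. For Cpt2 Ppara KO against Ppara KO (16), 2 groups only gave 0 (16 at an unadjusted p under 0.05) and the gene length offset 6. Without replicate 1 of both Ppara groups, Ppara KO against control (7) gave 18.

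Leaving out 1 library gave 2 to 7 for DKO against Cpt2 L-/- (2 without Cpt2 L-/- replicate 3 or 4 or DKO replicate 2), 8 to 13 for DKO against control (8 without control replicate 4), 20 to 31 for DKO against Tsc1 L-/- (20 without Tsc1 L-/- replicate 3), 1 to 3 for the Tsc1 and Cpt2 interaction, 6 to 9 for Cpt2 L-/- against control, 5 to 11 for Ppara KO against control (11 without Cpt2 Ppara KO replicate 1), 1 to 9 for Cpt2 Ppara KO against Cpt2 L-/- (1 without Cpt2 L-/- replicate 3 or 4), 6 to 21 for Cpt2 Ppara KO against Ppara KO (6 without Cpt2 Ppara KO replicate 1) and 7 to 15 for the Cpt2 and Ppara interaction.

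With the replicate block the count for DKO against Tsc1 L-/- was 28 and for the Cpt2 and Ppara interaction 13, and no count moved by over 1.5 times. Deviations of same-numbered livers correlated between −0.261 and 0.234 (medians −0.0012 and 0.0621 in the 2 fits), and 4 and 5 of 16 livers in the 2 fits were closest to their own number. With 4 livers a group, this check cannot tell whether the numbers mark anything shared. The labels' library codes of control replicates 3 and 4 and DKO replicates 2 and 3 lie close together, and what the codes mark is not given in the sources used here. Across 13641 genes, the contrast of these with the other 2 libraries correlated at −0.0295 between control and DKO. The median subunit in DKO minus control was 0.27 on the log2 scale within these codes and 0.09 within the others, and Psmb5 was at 1.10 and 0.01. Depth limited only Psma8 and Psmb11.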

Other observations

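In DKO livers, Psmb5 was at 126 and 129 CPM in replicates 1 and 4 and at 234 and 256 in replicates 2 and 3. Over all 13641 genes tested, 34 had replicates 2 and 3 apart from replicates 1 and 4 by more than 0.75 on the log2 scale, and 14 of these (41.2%) lie on chromosome 14, which holds 3.39% of the genes tested, between 8296274 and 54712174. Psmb5 is the only subunit gene among the 34. For the 14, the mean of the Cpt2 L-/- livers was nearer to DKO replicates 2 and 3 in 10, that of controls in 5, of Tsc1 L-/- in 9, of Ppara KO in 8 and of Cpt2 Ppara KO in 8. This count was made after the values were seen and was not tested, and its cause was not tested.

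Hepatocyte markers summed to 63080 to 80560 CPM in control, 41950 to 64950 in Tsc1 L-/-, 35650 to 59670 in Cpt2 L-/-, 28500 to 34730 in DKO, 58320 to 84520 in Ppara KO and 42310 to 60580 in Cpt2 Ppara KO livers. Pancreas markers stayed at or under 1.735 CPM in every library, and skeletal muscle markers summed to 20.09 CPM in 1 Cpt2 Ppara KO library and to at most 0.4808 CPM in the other groups.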
